A study of Mus musculus with 12 samples.

Results

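The genes described here are 10 genes that are widely used as readouts of the transcription factor NRF2 or that supply NADPH to antioxidant enzymes: Nqo1, Gclc, Gclm, Hmox1, Txnrd1, Srxn1, Gsr, G6pdx, Taldo1 and Tkt. They were found by matching the RefSeq accession of each array probe to a gene symbol, which gave 15 of 41174 distinct probes, and all 10 genes were measured among 25260 genes or unnamed probes. Of the 15 probes 14 were bright enough to be kept, and each gene is given by its brightest kept probe, which was well above background on all 12 arrays for all 10 genes.

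RNA from whole livers of C57BL/6 mice, all carrying MycF/F alleles (Myc flanked by loxP sites), was read on 12 Agilent mouse arrays of 2 colours. The groups were MycF/F,ERT2-Cre mice on 0.1% Wy-14643 diet (4 arrays), MycF/F mice on the same diet (3 arrays), MycF/F,ERT2-Cre mice on control diet (4 arrays) and MycF/F mice on control diet (1 array, labelled as pooled liver), each after 2 days of diet. The labels call MycF/F,ERT2-Cre "ko" and MycF/F "wt". Wy-14643 activates PPARα, which drives fatty acid oxidation genes in hepatocytes. ERT2-Cre is a recombinase that cuts at loxP sites once tamoxifen or a like ligand lets it into the nucleus. The sources used here give no tamoxifen dosing, transgene promoter, sex, age or animal identity. Nothing in the labels says that arrays of a group come from separate animals, and the p-values then measure only a spread among samples, which may be technical. All values below are log2 ratios of the sample (Cy5) to a pooled liver RNA (Cy3), and a fold change is a difference of such ratios. Their level can therefore be compared between groups for a gene, not between genes.

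NRF2, encoded by Nfe2l2, is held in the cytoplasm and sent for degradation by KEAP1 with the ubiquitin ligase subunit CUL3. Electrophiles and oxidants block that step, and NRF2 then enters the nucleus, pairs with a small MAF protein and binds antioxidant response elements near genes of glutathione synthesis, quinone reduction and NADPH supply. BACH1 competes for the same elements. In the liver this pathway is known for detoxifying reactive drug metabolites, and the NADPH it uses comes in part from the pentose phosphate pathway, which also feeds fatty acid synthesis.

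The promoters of 4 genes are shown because their results carry most of what follows: Srxn1 and Taldo1 were higher and G6pdx lower on Wy-14643 in both genotypes, and Nqo1 had the largest genotype difference of the 10 genes on that diet. Each window runs from 250 bases before to 50 bases after an annotated start (RefSeq, GRCm38.p6), is written 5′ to 3′ along the gene, and has matches to TGACNNNGC, a core of the antioxidant response element, in capitals. The windows are Srxn1 at chr2:152105274-152105573 (plus strand), G6pdx at chrX:74428831-74429130 (minus strand), Taldo1 at chr7:141391910-141392209 (plus strand) and Nqo1 at chr8:107403156-107403455 (minus strand).
Srxn1: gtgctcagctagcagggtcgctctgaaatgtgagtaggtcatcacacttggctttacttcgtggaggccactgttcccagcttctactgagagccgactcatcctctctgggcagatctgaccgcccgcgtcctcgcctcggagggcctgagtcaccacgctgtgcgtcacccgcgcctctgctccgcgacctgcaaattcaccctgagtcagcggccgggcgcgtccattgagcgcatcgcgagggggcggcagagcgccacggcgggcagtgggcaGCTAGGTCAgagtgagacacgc
G6pdx: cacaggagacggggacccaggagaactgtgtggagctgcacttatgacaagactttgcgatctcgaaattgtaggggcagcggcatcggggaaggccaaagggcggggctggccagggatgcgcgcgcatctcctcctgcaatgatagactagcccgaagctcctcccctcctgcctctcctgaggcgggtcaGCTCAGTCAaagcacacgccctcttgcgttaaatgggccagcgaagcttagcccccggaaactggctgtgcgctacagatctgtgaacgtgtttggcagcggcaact
Taldo1: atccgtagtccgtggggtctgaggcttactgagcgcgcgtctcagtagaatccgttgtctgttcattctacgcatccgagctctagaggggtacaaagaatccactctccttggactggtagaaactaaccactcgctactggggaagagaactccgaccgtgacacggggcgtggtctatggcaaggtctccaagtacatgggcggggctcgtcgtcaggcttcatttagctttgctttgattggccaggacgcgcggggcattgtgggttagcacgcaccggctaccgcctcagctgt
Nqo1: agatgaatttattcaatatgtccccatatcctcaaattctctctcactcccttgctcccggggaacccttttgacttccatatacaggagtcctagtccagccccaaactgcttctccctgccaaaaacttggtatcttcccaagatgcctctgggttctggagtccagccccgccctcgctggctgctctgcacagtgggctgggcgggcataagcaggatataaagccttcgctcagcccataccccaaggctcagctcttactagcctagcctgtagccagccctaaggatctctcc
Srxn1, higher on Wy-14643, and G6pdx, lower on Wy-14643, each held 1 match to TGACNNNGC, while Taldo1 and Nqo1 held 0. Both matches read along the other strand, and their first base lay at 29 after the start in Srxn1 and at -57 in G6pdx.

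Windows were listed for 7 of the 10 genes, 9 windows in all with 3 for Txnrd1. Gclc, Hmox1 and Gsr were not listed. TGACNNNGC, searched on both strands, was in 12.4% of all 32851 windows. Gclm and 1 of the Txnrd1 windows held it too, at -134 and -92. The looser TGANNNNGC, which includes every TGACNNNGC, was in 41.3% of all windows, with 4 matches in Srxn1 (TGAGTCAGC at -45 among them), 1 each in Gclm, G6pdx, Taldo1 and Tkt, 1 in each of 2 Txnrd1 windows and 0 in Nqo1. The E-box CACGTG (7.15% of all windows) and a direct repeat of AGGTCA with 1 base between its copies, the kind bound by PPAR and RXR (0.0396%), were in 0 of the 9 windows. A match describes letters and is neither a shown binding site nor a cause of any value. A lack of matches covers the window only, since sequence further from the start was not searched.

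Across arrays the median Cy5 signal was 2.64 to 4.82 times background, with 64.6% to 77.1% of spots clearly above it. Diet separated the arrays on the first principal component (53.3% of the variance). On the second (13.6%) the arrays of slide 1, 4 in number, stood apart, and there 5.47% to 8.35% of spots were marked as outliers by the scanner software against 0.904% to 1.84% on the other 2 slides. Such spots were left out, so a gene can have fewer values than arrays, and results that rest on slide 1 are given without it too. The 3 slides were scanned separately, and an effect of the slide and of its scan cannot be told apart. Of 6 hepatocyte markers 5 were measured, Alb and Ttr included. The 10-spot Myc probe was lower in MycF/F,ERT2-Cre than in MycF/F livers on Wy-14643 by a log2 difference of -1.85 (SE 0.17, limma adjusted p over probes = 0.00385). Another Myc probe was at -1.83 (SE 0.19, limma adjusted p = 0.00614 over probes), and the brightest Myc probe was at -0.57 (adjusted p = 0.295 over probes). Since no probe was placed on the gene, none checks the deletion.

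The Wy-14643 diet moved the antioxidant genes of MycF/F,ERT2-Cre livers in both directions. Srxn1, Gsr and Taldo1 rose, by log2 fold changes of 0.80, 0.76 and 0.32, while G6pdx and Tkt fell, by 0.53 and 0.32. Nqo1, Gclc, Gclm, Hmox1 and Txnrd1, which include the genes of glutathione synthesis and the quinone reductase, did not pass. With calls made at an adjusted p under 0.05, limma called 5 of the 10, with 3 higher and 2 lower, where 16.2% of 25162 genes tested were called (8.89% higher, 7.34% lower). The median fold change of the 10 genes was -0.06, against 0.03 over all genes tested.

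**Figure D1:**
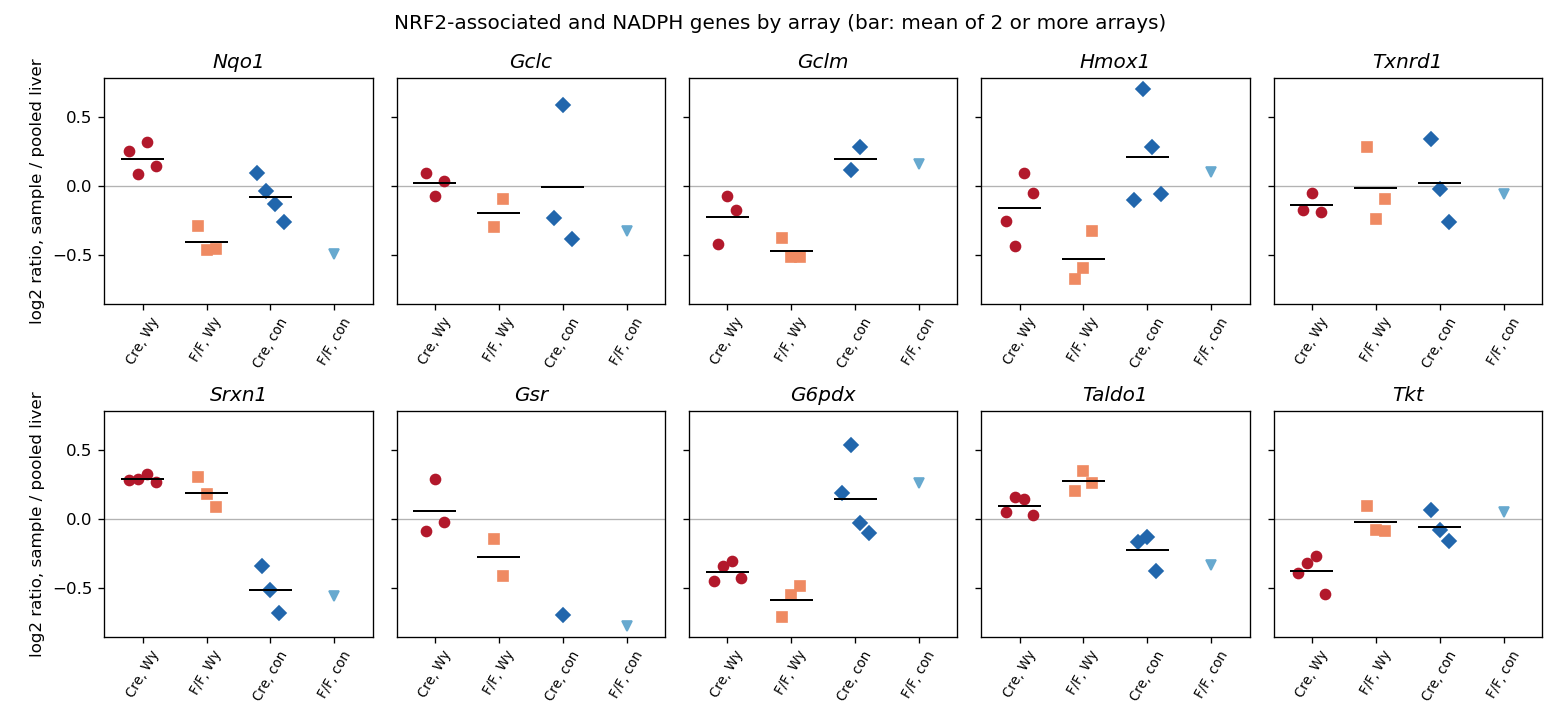
Log2 ratio of sample to pooled liver (y axis) for each of the 10 genes by group, with Cre for MycF/F,ERT2-Cre, F/F for MycF/F, Wy for Wy-14643 diet and con for control diet. Points are arrays and bars are means of 2 or more arrays, and all Srxn1 and Taldo1 points on Wy-14643 lie above those on control diet, while all G6pdx points on Wy-14643 lie below.

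Srxn1 encodes sulfiredoxin, which restores peroxiredoxins that have been over-oxidised. In MycF/F,ERT2-Cre livers it read 0.28, 0.28, 0.32 and 0.26 on Wy-14643, against -0.35, -0.51 and -0.69 on control diet. The 2 diets were far apart, the 4 Wy-14643 arrays lay within 0.06 of each other by these values, and the log2 fold change was 0.80 (SE 0.09, limma adjusted p = 0.000154). It was 0.82 with slide as a block, and 0.63, 0.80 and 0.98 within slides 1, 2 and 3.

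The other Srxn1 probes did not all follow. The dimmest probe rose by 1.03 (SE 0.23, limma adjusted p = 0.0073), with 0.015, 0.26, 0.28 and 0.097 on Wy-14643. Its control arrays read -0.95, 0.0075, -1.30 and -1.22. The spot at 0.0075, of slide 1, was not well above background but was in the fit. It lay at the level of the lowest Wy-14643 array. The remaining probe, brighter than the dimmest one, was at 0.04 (SE 0.14, adjusted p = 0.906, n = 3 and 2), with the groups overlapping. That probe read -0.44, -0.65 and -0.54 in MycF/F,ERT2-Cre livers fed Wy-14643 and -0.74 and -0.42 on control diet.

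Gsr encodes glutathione reductase, which returns oxidised glutathione to its reduced form with NADPH. It read -0.09, 0.29 and -0.03 in MycF/F,ERT2-Cre livers fed Wy-14643 and -0.70 on the only control array of that genotype left after outlier spots were removed. All 3 values on Wy-14643 lay above it, and the log2 fold change of 0.76 (SE 0.20, limma adjusted p = 0.0392) assumes that the lone value varies like those of other groups. With outlier spots kept, all 8 arrays had a value, from -0.09 to 0.28 on Wy-14643 and from -0.72 to -0.47 on control diet, and the log2 fold change was 0.64 (adjusted p = 0.00134). A second Gsr probe gave 0.84 (SE 0.16, limma adjusted p = 0.00852, n = 3 and 2), and another had a value on 1 array only. The call of the brightest probe was lost with slide as a block (0.75, adjusted p = 0.0567; 0.61 within slide 2, the only slide with a value on both diets for this probe). It was also lost without Wy-14643 replicate 2, 3 or 4 of MycF/F,ERT2-Cre (0.83, 0.64 and 0.80, adjusted p = 0.0541, 0.0694 and 0.0756), or without MycF/F Wy-14643 replicate 2 or 3 (0.76, adjusted p = 0.0515 and 0.0501).

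**Figure D2:**
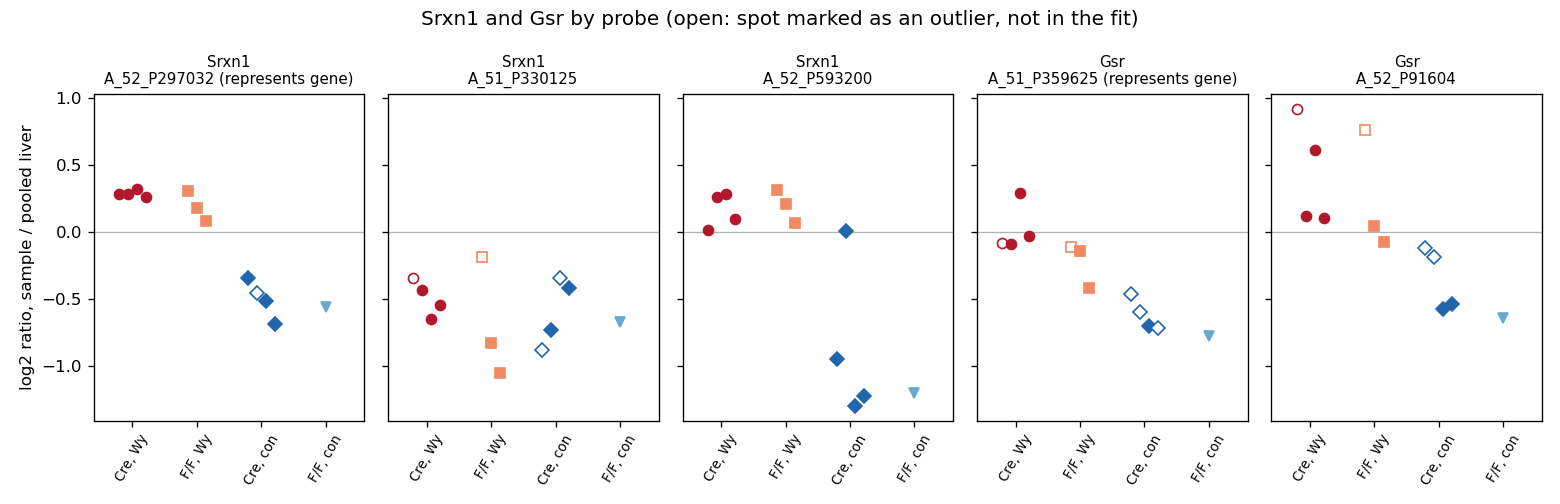
Log2 ratio of sample to pooled liver (y axis) by probe and group for 3 Srxn1 probes and 2 Gsr probes, each point an array, with Cre for MycF/F,ERT2-Cre, F/F for MycF/F, Wy for Wy-14643 diet and con for control diet. Open points are spots marked as outliers and left out of the fit; with them, all 7 Wy-14643 points of the brightest Gsr probe lie above all 5 control points.

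The pentose phosphate genes split. G6pdx encodes glucose-6-phosphate dehydrogenase, which opens the pathway and makes NADPH, and it read -0.45, -0.35, -0.31 and -0.43 in MycF/F,ERT2-Cre livers fed Wy-14643, against 0.18, 0.53, -0.03 and -0.11 on control diet. The groups did not overlap, and G6pdx fell by 0.53 on the log2 scale (SE 0.12, limma adjusted p = 0.0112). The fold change was -0.50 with slide as a block and -0.81, -0.31 and -0.26 within slides 1, 2 and 3. Without the 4 arrays of slide 1 it was -0.29 (adjusted p = 0.0473), a smaller difference than with it.

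Taldo1 (transaldolase) and Tkt (transketolase) run the non-oxidative branch, which exchanges sugar phosphates with glycolysis. Taldo1 read 0.04, 0.16, 0.14 and 0.02 in MycF/F,ERT2-Cre livers fed Wy-14643, against -0.17, -0.13 and -0.38 on control diet. It rose by a small amount with no overlap (0.32, SE 0.09, limma adjusted p = 0.0277; 0.31 with slide as a block, 0.20 and 0.46 within slides 1 and 3). Tkt moved the other way, with -0.39, -0.32, -0.27 and -0.55 on Wy-14643 and 0.06, -0.08 and -0.16 on control diet. These groups did not overlap either (-0.32, SE 0.10, limma adjusted p = 0.0419; -0.30 with slide as a block, -0.46, -0.23 and -0.24 within slides 1, 2 and 3). The Taldo1 call was lost without MycF/F,ERT2-Cre Wy-14643 replicate 2 or 3 (0.30 each, adjusted p = 0.0748 and 0.0697) or control replicate 4 (0.24, adjusted p = 0.11). That of Tkt was lost without the arrays of slide 1 (-0.25, adjusted p = 0.131), without MycF/F,ERT2-Cre Wy-14643 replicate 1, 2 or 4 (-0.32, -0.34 and -0.27, adjusted p = 0.0709, 0.0648 and 0.114) or control replicate 2 or 3 (-0.26 and -0.33, adjusted p = 0.15 and 0.0717), and without MycF/F Wy-14643 replicate 2 or 3 (-0.32, adjusted p = 0.0596 and 0.0588).

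Nqo1 encodes a quinone reductase that is a standard readout of NRF2. It read 0.25, 0.08, 0.31 and 0.14 in MycF/F,ERT2-Cre livers fed Wy-14643, against 0.09, -0.04, -0.13 and -0.26 on control diet. The lowest Wy-14643 array lay at the level of the highest control array, and the log2 fold change of 0.28 (SE 0.09, limma adjusted p = 0.0561) did not pass. It did pass with slide as a block (0.32, adjusted p = 0.0185), with replicate 1 of the MycF/F,ERT2-Cre control group (slide 1) left out (0.34, adjusted p = 0.0246) and without all of slide 1 (0.38, adjusted p = 0.0264). Within slides 1, 2 and 3 it was 0.22, 0.21 and 0.49. With the replicate block it passed as well (0.28, limma adjusted p = 0.0405). It did not pass with median centring (0.20, adjusted p = 0.756) or the deposited log ratio (0.41, adjusted p = 0.0741). Single arrays left out in turn gave adjusted p from 0.0246 to 0.146, with a call for 1 of 12.

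Gclc and Gclm encode the catalytic and the modifier subunit of glutamate-cysteine ligase, the first enzyme of glutathione synthesis. Gclc was at 0.03 (SE 0.22, 95% interval -0.47 to 0.53, limma adjusted p = 0.952), with 0.09, -0.07 and 0.04 on Wy-14643 and a wide -0.23, 0.59 and -0.39 on control diet. Gclm read -0.42, -0.07 and -0.18 in MycF/F,ERT2-Cre livers fed Wy-14643 and 0.11 and 0.28 on control diet. All Gclm values on Wy-14643 were below both control values, with a log2 fold change of -0.42 (SE 0.13, limma adjusted p = 0.0515) that just missed the threshold. Gclm passed with slide as a block (-0.45, adjusted p = 0.0237), with outlier spots kept (-0.57, adjusted p = 0.0243), and without the arrays of slide 1 (-0.42, adjusted p = 0.0306). It also passed without MycF/F,ERT2-Cre Wy-14643 replicate 3 (-0.49, adjusted p = 0.0446). Without Wy-14643 replicate 1 or control replicate 1 it was at -0.42 (limma adjusted p = 0.0496 and 0.0492). Neither of those arrays held a Gclm value, so the values of Gclm itself did not change. With single arrays left out in turn Gclm passed for 3 of 12. It did not pass with the replicate block (-0.36, limma adjusted p = 0.116) or the deposited log ratio (-0.51, adjusted p = 0.0746). With median centring it was at 0.034 (adjusted p = 0.983).

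Hmox1 encodes heme oxygenase 1, which opens the heme ring and frees its iron, and is expressed in liver macrophages as well as in stressed hepatocytes. It read -0.26, -0.44, 0.09 and -0.05 in MycF/F,ERT2-Cre livers fed Wy-14643, against -0.11, 0.70, 0.28 and -0.06 on control diet. The groups overlapped (-0.37, SE 0.17, limma adjusted p = 0.187). The fold change was -0.39 with slide as a block (adjusted p = 0.162), and -0.56, -0.72 and 0.08 within slides 1, 2 and 3. With replicate 2 of the MycF/F,ERT2-Cre control group left out it was -0.20 (adjusted p = 0.435). Txnrd1 encodes the thioredoxin reductase of the cytosol. It was at -0.17, -0.05 and -0.19 on Wy-14643 and 0.33, -0.02 and -0.26 on control diet, with overlap and a log2 fold change of -0.16 (SE 0.17, 95% interval -0.53 to 0.21, limma adjusted p = 0.604).

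The same diet raised Srxn1 and Taldo1 and lowered G6pdx in MycF/F livers, as compared with the single pooled control array. Limma called 3 of 10 genes (2 higher, 1 lower), where 6.51% of 24912 genes tested were called (3.32% higher, 3.19% lower). The median fold change was 0.07 for the 10 genes and -0.0029 over all genes tested. These comparisons assume that the lone control array varies like the arrays of other groups, and they have no control array in common with the MycF/F,ERT2-Cre comparison.

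Srxn1 read 0.30, 0.18 and 0.08 in MycF/F livers on Wy-14643, against -0.56 on control diet (log2 fold change 0.75, SE 0.14, limma adjusted p = 0.00857). Taldo1 read 0.20, 0.35 and 0.26 on Wy-14643, against -0.34 (0.61, SE 0.13, adjusted p = 0.0177). G6pdx read -0.71, -0.56 and -0.49 on Wy-14643, against 0.26 (-0.84, SE 0.20, adjusted p = 0.026). For all 3 genes every Wy-14643 array lay on the same side of the control array. Slide 2 alone, the only slide with both diets of MycF/F, gave 0.74 for Srxn1, 0.68 for Taldo1 and -0.81 for G6pdx, and with slide as a block the values were 0.74, 0.67 and -0.88. The Taldo1 call was lost without MycF/F Wy-14643 replicate 2 (0.57, adjusted p = 0.0554), and that of G6pdx without replicate 1 or 2 (-0.78 and -0.86, adjusted p = 0.0653 and 0.0574). On the other 2 Srxn1 probes the values were 1.40 (SE 0.37, limma adjusted p = 0.0401) and -0.27 (SE 0.18, adjusted p = 0.566).

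The other 7 genes did not pass in MycF/F livers. Gclm read -0.38, -0.52 and -0.52 on Wy-14643, against 0.15, and just missed the threshold (-0.63, SE 0.16, limma adjusted p = 0.0505). Gclm passed with slide as a block (-0.76), without the arrays of slide 1 (-0.67) and without replicate 1 or 2 of either diet of MycF/F,ERT2-Cre (-0.63 each). Among those replicates only Wy-14643 replicate 2 held a Gclm value, and none of them belongs to the MycF/F groups compared. Hmox1 was at -0.67, -0.59 and -0.33 on Wy-14643, against 0.10 (-0.63, SE 0.28, adjusted p = 0.271). Gsr was at -0.14 and -0.42 on Wy-14643, against -0.78 (0.50, SE 0.21, adjusted p = 0.272). Every Wy-14643 value of these genes lay on the same side of the control array, and so did those of Nqo1 and Gclc. Against a single array this carries little weight, here and for the called genes, and its share over all genes was not counted. Nqo1 (0.09, SE 0.15), Gclc (0.13, SE 0.33), Txnrd1 (0.04, SE 0.24) and Tkt (-0.07, SE 0.14) had 95% intervals that included 0.

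**Figure D3:**
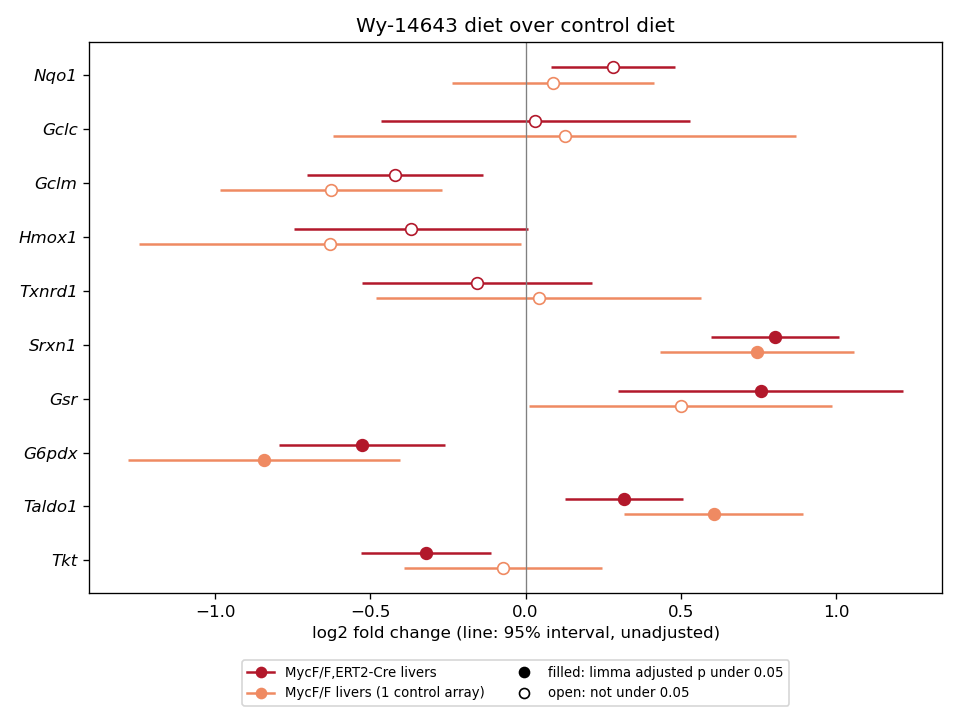
Log2 fold change of Wy-14643 over control diet (x axis) with its unadjusted 95% interval for the 10 genes, in MycF/F,ERT2-Cre livers (upper line of each pair) and MycF/F livers (lower line, 1 control array). Filled points passed limma at an adjusted p under 0.05; Srxn1 and Taldo1 lie right of 0 and G6pdx left of 0 in both genotypes.

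On Wy-14643 the largest genotype difference among the 10 genes was that of Nqo1, which did not pass. This comparison uses the same Wy-14643 arrays as the drug comparisons above. Limma called 0 of 10 genes, where 17 of 25169 genes tested (0.0675%) were called (0.0159% higher, 0.0517% lower) and 2116 had an unadjusted p under 0.05. With replicate number as a block 0 genes were called. Arrays of both genotypes with the same number shared a slide, so a pairing by number cannot be told apart from the slide. Nqo1 read 0.25, 0.08, 0.31 and 0.14 in MycF/F,ERT2-Cre livers, against -0.30, -0.47 and -0.46 in MycF/F livers. The genotypes did not overlap, and the log2 difference was 0.60 (SE 0.10, 95% interval 0.39 to 0.82, limma adjusted p = 0.0513). It was 0.55, 0.55 and 0.68 within slides 1, 2 and 3, and 0.64 with the replicate block (limma adjusted p = 0.0786). Nqo1 passed with slide as a block (0.61, adjusted p = 0.03) and with outlier spots kept (0.60, adjusted p = 0.0443). Without the arrays of slide 1 it passed too (0.64, adjusted p = 0.0351). With single arrays left out in turn it passed for 2 of 12, at adjusted p from 0.0375 to 0.288. Those 2 were replicates 1 and 4 of the MycF/F,ERT2-Cre control group (0.60 each, adjusted p = 0.0375 and 0.0493). Neither is among the arrays compared here, so the Nqo1 values compared did not change. Median centring and the deposited log ratio called 0 genes, so Nqo1 did not pass there.

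Tkt read -0.39, -0.32, -0.27 and -0.55 in MycF/F,ERT2-Cre livers fed Wy-14643, against 0.09, -0.08 and -0.09 in MycF/F livers on that diet (-0.36, SE 0.10, limma adjusted p = 0.215). The genotypes did not overlap, and the difference was -0.49, -0.24 and -0.32 within slides 1, 2 and 3. G6pdx, Gclc and Gsr had every MycF/F,ERT2-Cre value above every MycF/F value on Wy-14643 and Taldo1 every value below. Their log2 differences were 0.20 (SE 0.13) for G6pdx, 0.22 (SE 0.25) for Gclc, 0.34 (SE 0.15) for Gsr and -0.18 (SE 0.09) for Taldo1, with limma adjusted p from 0.66 to 0.95. Gclc and Gsr rested on 3 against 2 values. The share of all genes without overlap was not counted in any comparison, so a lack of overlap only describes these arrays. Gclm (0.25, SE 0.11), Hmox1 (0.37, SE 0.19), Txnrd1 (-0.12, SE 0.17) and Srxn1 (0.10, SE 0.09) overlapped between genotypes.

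On control diet limma called 0 of 24899 genes tested between genotypes (0%), so 0 of the 10, with the MycF/F array that the drug comparison also used, and 442 genes had an unadjusted p under 0.05. Nqo1 was again on the higher side in MycF/F,ERT2-Cre livers, at 0.09, -0.04, -0.13 and -0.26, against -0.50 in the MycF/F array (0.41, SE 0.14, 95% interval 0.10 to 0.73, limma adjusted p = 1, unadjusted 0.0149). The other 9 genes lay between -0.11 and 0.32, each with a 95% interval that included 0. The difference of the drug effects between genotypes, which rests on the same MycF/F control array, was called in 0 of 24874 genes (0%), with 538 at an unadjusted p under 0.05. Among the 10 genes it ran from -0.29 for Taldo1 (SE 0.16, 95% interval -0.63 to 0.06) to 0.32 for G6pdx (SE 0.24, -0.20 to 0.83). A gene called in only 1 genotype is thus not shown to respond differently in the other.

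**Figure D4:**
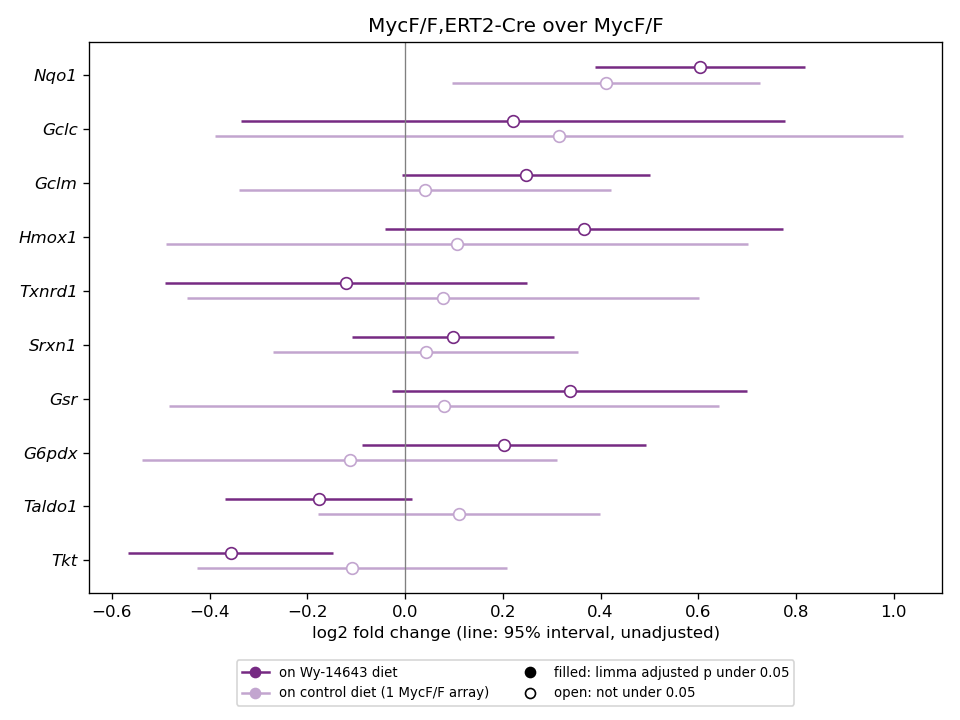
Log2 difference of MycF/F,ERT2-Cre over MycF/F livers (x axis) with its unadjusted 95% interval for the 10 genes, on Wy-14643 diet (upper line of each pair) and on control diet (lower line, 1 MycF/F array). All points are open, since 0 genes passed limma at an adjusted p under 0.05; Nqo1 lies right of 0 with an interval that leaves out 0 on both diets.

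The regulators of NRF2 were measured as a list of 9 genes, of which 3 rose, 0 fell and 6 did not pass in MycF/F,ERT2-Cre livers fed Wy-14643 (median 0.21). Over all genes tested 8.89% were called higher and 7.34% lower there, and 3.32% and 3.19% in MycF/F livers. Counts in small lists, here and below, were not tested against these shares. Nfe2l1, a sister factor of NRF2 that is known for proteasome genes, rose by 0.95 (SE 0.11, limma adjusted p = 0.000171), with 0.36, -0.08, 0.24 and 0.13 on Wy-14643 and -0.77, -0.81 and -0.79 on control diet. Sqstm1, whose protein p62 binds KEAP1, rose by 0.65 (SE 0.13, adjusted p = 0.00546, n = 4 and 2), and Keap1 itself rose by 0.38 (SE 0.09, adjusted p = 0.013). Nfe2l2 was at -0.03, -0.10 and 0.13 on Wy-14643 and at -0.25 and -1.07 on control diet, with no overlap and no call (0.66, SE 0.23, adjusted p = 0.0925). Cul3, Bach1, Mafg, Maff and Mafk ran from -0.29 to 0.21. Nfe2l1 was the only call in MycF/F livers among 8 regulators tested (1.15, SE 0.17, limma adjusted p = 0.00251, n = 2 and 1), and Sqstm1 had no value on the control array.

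Other NRF2-associated genes went both ways in MycF/F,ERT2-Cre livers, with 3 of 14 higher, 3 lower and 8 not called (median 0.24). The shares over all genes were 8.89% higher and 7.34% lower in that genotype, and 3.32% and 3.19% in MycF/F livers. The efflux pump gene Abcc4 rose by 1.72 (SE 0.15) and the epoxide hydrolase gene Ephx1 by 1.30 (SE 0.16), while the glutathione S-transferase gene Gstm3 was at -1.44 (SE 0.17). For MycF/F, 4 of 13 were higher and 2 lower, with Abcc4 at 1.87 (SE 0.25), Gstp1 at -1.64 (SE 0.40) and Ephx1 at 1.48 (SE 0.20). Of 9 other glutathione genes 2 rose and 1 fell in MycF/F,ERT2-Cre livers. Those were Oplah (1.29, SE 0.16), which returns 5-oxoproline to glutamate, the glutaredoxin gene Glrx (0.85, SE 0.18) and Chac2 (-0.54, SE 0.09), whose enzyme degrades glutathione. Oplah also rose (1.33, SE 0.26) and Chac2 fell (-0.65, SE 0.15) in MycF/F livers, with 7 of 9 not called. Of 13 thioredoxin and peroxiredoxin genes 4 rose and 1 fell, among them the mitochondrial reductase gene Txnrd2 (0.67, SE 0.13), Prdx1 (0.55, SE 0.13, n = 3 and 1) and Prdx4 of the endoplasmic reticulum (-0.94, SE 0.10). Prdx4 fell by 0.93 (SE 0.16) in MycF/F livers and 0 of 12 rose. Of 4 genes that remove superoxide or hydrogen peroxide, Sod1 rose (0.39, SE 0.10) and the extracellular Sod3 fell (-0.43, SE 0.09) in MycF/F,ERT2-Cre livers, and limma called 0 of 4 in MycF/F livers.

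Genes of the other NADPH routes moved in both directions. Beside the counts below, 8.89% of all genes were called higher and 7.34% lower in MycF/F,ERT2-Cre livers, and 3.32% and 3.19% in MycF/F livers. Of 6 other pentose phosphate genes 1 rose in each genotype, Pgls, which encodes the lactonase that follows G6pdx (0.50, SE 0.09 in MycF/F,ERT2-Cre livers and 0.53, SE 0.14 in MycF/F livers). Of 5 other NADPH-making enzymes tested in MycF/F,ERT2-Cre livers 2 rose and 1 fell. The malic enzyme gene Me1 rose by 2.10 (SE 0.14, n = 2 and 2) and mitochondrial Idh2 by 0.57 (SE 0.09), and the folate enzyme gene Aldh1l1 was at -1.54 (SE 0.18). In MycF/F livers Me1 was at 1.90 (SE 0.18, n = 2 and 1) and Aldh1l1 at -1.61 (SE 0.33, n = 1 and 1), where the spread comes from the other groups alone for Aldh1l1. Of 14 heme and iron genes 4 rose and 0 fell in MycF/F,ERT2-Cre livers, with the ferritin light chain gene Ftl1 at 0.77 (SE 0.15) and the biliverdin reductase gene Blvrb at 0.72 (SE 0.13). The lipogenic and sugar-responsive genes encode enzymes that make fat with NADPH or supply its carbon, and regulators such as Srebf1, Mlxipl and Thrsp. They fell for 7 of 11 with 0 higher in MycF/F,ERT2-Cre livers (median -0.97), and their median was -0.96 in MycF/F livers. Thrsp, Pklr and Khk were at -2.76 (SE 0.37, n = 3 and 1), -2.74 (SE 0.21) and -1.80 (SE 0.17, n = 3 and 1) in MycF/F,ERT2-Cre livers. Between genotypes on Wy-14643 limma called 0 genes of any of these lists, against 0.0675% of all genes tested.

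Markers of Kupffer cells, the macrophages of the liver, moved with Hmox1 and G6pdx across the arrays, and their part in those results was not tested. Of 10 measured markers 6 fell and 0 rose in MycF/F,ERT2-Cre livers fed Wy-14643 (median -0.64), and 3 of 9 fell in MycF/F livers (median -0.82). Among all genes tested 7.34% were called lower and 8.89% higher in MycF/F,ERT2-Cre livers, and 3.19% and 3.32% in MycF/F livers. The marker counts in this paragraph were not tested against these shares. In whole liver, fewer cells of a type and less RNA per cell cannot be told apart. The mean of the markers ran from -0.33 to -0.14 over MycF/F,ERT2-Cre arrays on Wy-14643, from -0.70 to -0.37 over MycF/F arrays on Wy-14643 and from 0.17 to 0.90 over MycF/F,ERT2-Cre control arrays, and it was 0.19 on the MycF/F control array. MycF/F,ERT2-Cre control replicate 2, on slide 1, was highest of all 12 arrays in the marker mean (0.90), in Hmox1 (0.70) and in G6pdx (0.53). The measured hepatocyte markers were lower on Wy-14643 too, with 4 of 5 called in MycF/F,ERT2-Cre livers (median -0.96) and 3 of 5 in MycF/F livers (median -1.17). Of the other marker lists in MycF/F,ERT2-Cre livers, limma called 2 of 7 endothelial, 3 of 7 stellate cell and fibroblast, 2 of 5 erythroid and 2 of 6 lymphocyte markers lower on Wy-14643 and 0 higher. Of 5 cholangiocyte markers 1 was called in each direction, and of 5 neutrophil markers 0. In MycF/F livers 1 of 7 endothelial markers was called lower and 0 of the stellate, erythroid, lymphocyte, cholangiocyte and neutrophil markers in either direction. The mean of the erythroid markers was -0.13 on Wy-14643 and 0.35 on control diet over MycF/F,ERT2-Cre arrays, and the part of these cells in the results was not tested.

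**Figure D5:**
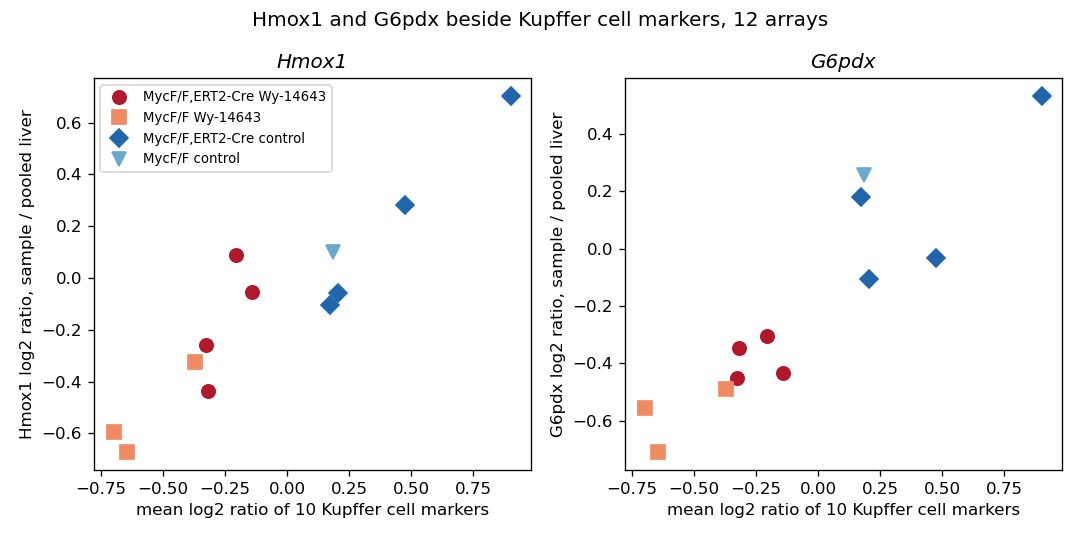
Log2 ratio of Hmox1 (left) and G6pdx (right) to pooled liver (y axis) against the mean log2 ratio of 10 Kupffer cell markers (x axis), each point 1 of the 12 arrays. The 7 Wy-14643 arrays have marker means from -0.70 to -0.14 and the 5 control arrays from 0.17 to 0.90.

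The profiles most like those of the 3 genes measured on all 12 arrays were found among 11632 named genes, by the root mean square difference of profiles centred on their own mean. The values describe these arrays, which share their diets, slides and pooled liver RNA. Nearest to Hmox1 were Itgb2, a leukocyte integrin gene, and Csf1r, the receptor gene for the macrophage growth factor and a member of the Kupffer list, at 0.141 and 0.143. Nearest to G6pdx were Nrros and Lrrc25, at 0.0961 and 0.103. Nearest to Nqo1 were Slco2a1 and Cdhr5, at 0.14 and 0.141.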

How the data were processed

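Each array compared sample RNA (Cy5) with pooled liver RNA (Cy3), amplified to antisense RNA per the labels' protocols. The deposited intensity values are median spot and local background signals, which per the file headers were extracted with Agilent Feature Extraction 11.0.1.1. A deposited log10 ratio of Cy5 to Cy3 served as an alternative after conversion to log2.

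In R 4.3.3 with limma 3.58.1 and data.table version 1.17.8, signals were corrected with normexp (offset 50), loess-normalized within arrays to log2 ratios and stripped of outlier spots. Probes well above background on at least 3 of 12 arrays (31861 of 41174) were kept, with at least a share of 0.5 of the spots of a probe. The deposited values hold no gene names, so accessions were matched through a RefSeq table of GRCm38.p6 (16792 of 17440 matched, 23374 probes with 1 symbol). The array design names another build, and probes were not placed on genes. Promoter windows were searched in Python 3.11.15 with pandas 2.3.3, and figures were drawn with matplotlib 3.10.9. TGACNNNGC was added after the other motifs were chosen.

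A model with 4 group means was fitted with lmFit and eBayes, two-sided, with Benjamini-Hochberg adjustment over all genes tested in a comparison and calls under 0.05. The code was tested on simulated data. The number of arrays limits the precision. Replicate numbers, from the labels, were checked for pairing by the correlation of deviations from group means: the 3 pairs of Wy-14643 arrays of both genotypes gave 0.420, 0.145 and 0.141 and each shared a slide. All 10 genes and all NRF2 regulators are named, and from each other list up to 3 called genes with the largest change. A gene that this rule would name is not reported here. The genes and lists were chosen with earlier results of these data known. Alternatives covered background correction, normalization, deposited log ratio, probe filter, outlier spots, probe averaging, slide and replicate blocks, single slides and single arrays left out. Leaving out the 4 arrays of slide 1 was added after the data were seen.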

Additional observations from a re-analysis of the deposited data

How the results depend on the processing

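Directions and calls of the 10 genes held under the processing choices listed, single slides set apart, except as given here or above, and the cause of each change was not tested. In MycF/F,ERT2-Cre livers the drug comparison called 832 genes and 2 of the 10 with median centring in place of loess, and 2 of the 10 with the deposited log ratio; with arrays left out in turn it called 3094 to 4084 genes and 2 to 7 of the 10. In MycF/F livers it called 185 genes and 0 of the 10 with median centring, 1049 and 0 with the deposited log ratio, and 2815 genes without slide 1; arrays left out in turn gave 1082 to 1875 genes and 1 to 4 of the 10. The genotype comparison on Wy-14643 called 0 genes with median centring, with the deposited log ratio and with the replicate block, 39 with outlier spots kept, 27 with probes averaged, 31 with slide as a block and 108 without slide 1, and 1 of the 10 (Nqo1) under the last 4; arrays left out in turn gave 0 to 27 genes and 0 to 1 of the 10. On control diet 2 genes were called without slide 1, and the difference of drug effects called 0 genes in all of these settings. Among single genes, the drug calls in MycF/F,ERT2-Cre livers lost with median centring were G6pdx (-0.52, limma adjusted p = 0.411), Taldo1 (0.45, 0.464) and Tkt (-0.21, 0.862), and those lost with the deposited log ratio were Gsr (0.62, 0.178), Taldo1 (0.35, 0.069) and Tkt (-0.34, 0.128). Without background correction Tkt was lost (-0.31, limma adjusted p = 0.0724), and without the probe filter Gsr (0.76, 0.0554). With probes averaged Srxn1 was lost in MycF/F livers (0.77), while Gclm passed in both genotypes (-0.42, limma adjusted p = 0.0472 in MycF/F,ERT2-Cre livers, and -0.63 in MycF/F livers). Gclm has a single probe, so its own values did not change there.

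In the genotype comparison on Wy-14643 the replicate block changed no call of the 10 genes. Arrays of the same number shared a slide there, so a pairing by number cannot be told apart from the slide. In the comparisons with control arrays, correlations of deviations ran from -0.07 to 0.36 between arrays of the same number. That range takes in 0.145 and 0.141 of the Wy-14643 pairs, so the correlations do not settle which samples are paired. There, with the replicate block, the drug comparisons called 4469 genes (5 of the 10, Nqo1 gained at 0.28 and Gsr lost at 0.83) in MycF/F,ERT2-Cre livers and 1515 genes (3 of the 10) in MycF/F livers.

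Signs turned only for values that were not called. Within slide 2 the drug effect was -0.49 for Gclc in MycF/F,ERT2-Cre livers and -0.18 for Txnrd1 in MycF/F livers, and within slide 3 it was 0.075 for Hmox1 and 0.14 for Txnrd1 in MycF/F,ERT2-Cre livers. The genotype difference was 0.068 for Txnrd1 within slide 2 and -0.024 for Srxn1 within slide 1 on Wy-14643, and -0.041 for Gclm within slide 2 on control diet. The difference of drug effects within slide 2 was -0.024 for Hmox1, 0.029 for Txnrd1 and -0.026 for Gsr. With median centring the drug effect was 0.034 for Gclm in MycF/F,ERT2-Cre livers and -0.018 for Nqo1 and 0.051 for Tkt in MycF/F livers, and the genotype difference on control diet was -0.24 for Gclm, -0.40 for Gsr and -0.28 for Srxn1. With slide as a block the drug effect was -0.034 for Gclc in MycF/F,ERT2-Cre livers and -0.11 for Txnrd1 in MycF/F livers; Txnrd1 differed between genotypes by 0.034 on Wy-14643 and -0.073 on control diet, Gclm by -0.043 on control diet, and the drug effects on Txnrd1 by 0.11. Without slide 1 the drug effect was -0.080 for Gclc and 0.0024 for Txnrd1 in MycF/F,ERT2-Cre livers and -0.11 for Txnrd1 in MycF/F livers, and the genotype difference was 0.029 for Txnrd1 on Wy-14643 and -0.081 for Txnrd1, -0.043 for Srxn1 and -0.041 for Taldo1 on control diet, with 0.11 for the difference of drug effects on Txnrd1. With the replicate block Hmox1 was at -0.068 between genotypes on control diet, Txnrd1 at 0.11 on Wy-14643 and the difference of drug effects on Srxn1 at -0.016 (-0.065 with probes averaged).

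With arrays left out in turn, the drug effect ran from -0.16 to 0.33 for Gclc and from -0.30 to 0.0024 for Txnrd1 in MycF/F,ERT2-Cre livers, and from -0.11 to 0.15 for Txnrd1 in MycF/F livers. The genotype difference ran from -0.23 to 0.029 for Txnrd1 on Wy-14643, and on control diet from -0.041 to 0.12 for Gclm, -0.060 to 0.21 for Hmox1, -0.081 to 0.22 for Txnrd1 and -0.043 to 0.13 for Srxn1. The difference of drug effects ran from -0.28 to 0.20 for Gclc and from -0.029 to 0.14 for Srxn1.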

Other observations

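The 10 genes differed in how steady they were among arrays of a group. The pooled within-group SD of the log2 ratio was 0.341 for Gclc, higher than in 94.6% of genes, 0.284 for Hmox1 (89.7%) and 0.237 for Txnrd1 (82.5%). It was 0.0926 for Taldo1 (15.3%), 0.110 for Srxn1 (26.1%) and 0.114 for Tkt (28.8%), against a median of 0.148 over all genes.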
